A study of Mus musculus with 20 samples.

Results

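Aminoacyl-tRNA synthetases are the enzymes that join each amino acid to its transfer RNA, and 35 genes that encode them are described here in mouse CD4 T cells: 20 for cytosolic and 15 for mitochondrial enzymes. The members were taken from a fixed list of gene symbols and looked up as rows of the deposited count table. All 35 of the 35 were present among its 22068 rows, and all 35 were among the 13309 genes with enough counts to be tested, so no member was lost to the filter on low counts.

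RNA was sequenced from CD4 T cells of 8 to 12 week old C57BL/6 mice with a Foxp3-GFP reporter, sorted from lymph node and spleen. Fresh CD5lo and fresh CD5hi cells were naive cells (Foxp3-GFP-, CD44 low) from the 15% with the lowest or the highest surface CD5, a marker of how strongly a T cell's receptor binds self peptides. Rested CD5lo and rested CD5hi cells were sorted in the same way and then cultured for 22 h with the cytokine IL-7 at 10 ng/mL. Treg were regulatory T cells sorted as Foxp3-GFP+ and lysed without culture, with no gate on CD5 or CD44 in the labels' description. The sort of every group removed cells positive for CD8 or CD69 and for markers of B, NK, dendritic and myeloid cells. Each of the 5 groups has 4 libraries, called biological replicates in the labels and described as pooled from male and female mice. Nothing given here says how many mice were in a pool, so p-values measure only the spread between these libraries. Levels are given as CPM, the counts relative to the total of each library after TMM scaling. Library totals ranged from 38211406 to 64477566 counts, and the lowest member, Fars2, still had a mean of 10.1 CPM in fresh CD5lo cells.

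A synthetase reads its own tRNA and amino acid, and the charged tRNA is what the ribosome uses. The cytosol and the mitochondrion keep separate sets: the mitochondrial enzymes (most with a symbol ending in 2) are encoded in the nucleus and imported to serve the mitochondrial ribosome, while Gars and Kars each encode the enzyme of both compartments. Eprs charges both glutamate and proline tRNAs, Farsa and Farsb encode the subunits of a single enzyme, and 8 cytosolic enzymes (Dars, Eprs, Iars, Kars, Lars, Mars, Qars and Rars) sit in a multisynthetase complex. Several cytosolic synthetase genes are known targets of ATF4, the transcription factor of the amino acid response, which binds a C/EBP-ATF response element (CARE), and Myc is known to drive synthetase genes in growing lymphocytes.

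The CARE sites in the members' promoters are shown first, because they were found in windows of 1 compartment and not of the other. Their part in any change of these genes was not tested. RefSeq promoter windows (assembly GRCm38.p6, 250 bases before to 50 after the annotated start) were found for 26 of the 35 members, 13 in each compartment. The motif TGATGNAA, searched on both strands, was present in 5 of the 13 cytosolic windows (38.5%) and in 0 of the 13 mitochondrial windows, against 4.51% of the 27025 windows of all genes. The 5 genes were Aars, Gars, Iars, Tars and Yars. A site of each gene is printed along the strand of its gene, with the motif or its reverse complement in capitals. In the order printed they lie at chr8:111033840-111033869, chr6:55037960-55037989, chr13:49682126-49682155, chr15:11399655-11399684 and chr4:129189895-129189924, and Tars alone among them is on the minus strand.
Aars: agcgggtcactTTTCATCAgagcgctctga
Gars: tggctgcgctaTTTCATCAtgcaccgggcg
Iars: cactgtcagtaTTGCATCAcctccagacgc
Tars: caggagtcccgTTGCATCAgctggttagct
Yars: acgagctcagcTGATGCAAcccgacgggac
In Yars the motif reads forward, and in the other sites it reads on the opposite strand. The E-box CACGTG, the core bound by Myc and Max, was present in the windows of Aars, Farsb, Iars and Tars (30.8% of the cytosolic windows) and of Ears2 (7.69% of the mitochondrial ones), against 8.09% of all windows. The NRF1 motif was found in Farsb, Kars and Tars and in Iars2 and Mars2 (23.1% and 15.4%, against 5.19% of all windows). The ETS motif CCGGAAGT was found in Farsa and Mars and in Rars2 (15.4% and 7.69%, against 4.31%). A match describes the letters of the window and does not show that a factor binds there. No window was matched for Cars, Hars, Lars, Nars, Rars, Vars, Wars, Hars2 and Pars2.

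Per kilobase of the longest GENCODE M21 coding transcript, the cytosolic genes were read more deeply than the mitochondrial ones. In fresh CD5lo cells the median level was 28.8 CPM per kilobase over the 20 cytosolic genes and 11.2 over the 15 mitochondrial genes. Qars, the glutamine enzyme, was the highest cytosolic gene at 47.6 CPM per kilobase, followed by Dars (45.9) and Kars (45.05). Cars, the cysteine enzyme, was the lowest at 12.8. Among mitochondrial genes Lars2, the leucine enzyme, stood at 86.2 CPM per kilobase and Tars2, the threonine enzyme, at 27.9, while Mars2, the methionine enzyme, was lowest at 2.42. Cars stayed the lowest cytosolic gene and Mars2 the lowest mitochondrial gene in all 5 groups. The place of Mars2 rests on its length, 11294 bases, the longest of all members. Before division by length it was at 27.3 CPM in fresh CD5lo cells, the median of the 15 mitochondrial genes. In Treg the highest cytosolic gene was Vars, the valine enzyme, at 55.1 CPM per kilobase.

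When the enzymes for the same amino acid were set side by side, the cytosolic gene was the higher per kilobase in 13 of 16 pairs in fresh CD5lo cells, with a median ratio of 2.72. The widest gaps were for methionine (Mars over Mars2, 10.97-fold) and asparagine (Nars over Nars2, 10.7-fold). The gap for methionine depends on the long transcript used for Mars2. Before division by length Mars was at 78.5 and Mars2 at 27.3 CPM, and Nars was at 119 and Nars2 at 15.4 CPM. The order was turned for leucine, cysteine and threonine: Lars was at 0.246 of Lars2, Cars at 0.644 of Cars2 and Tars at 0.668 of Tars2. Eprs enters these pairs against both Ears2 and Pars2, and Fars2 enters against both Farsa and Farsb.

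The balance of the compartments was taken in each library as the summed CPM of the 15 mitochondrial genes in percent of the summed CPM of the 20 cytosolic genes. It was 46.1% ± 4.18 (SD, n = 4) in fresh CD5lo, 49.0% ± 6.60 in fresh CD5hi, 53.5% ± 12.2 in rested CD5lo, 48.7% ± 5.51 in rested CD5hi and 37.99% ± 4.30 in Treg. Much of the spread came from Lars2, which had the most reads of all members in each of the 4 naive groups. Without Lars2 the balance was 27.8% ± 1.02, 29.0% ± 1.18, 31.1% ± 1.94, 32.4% ± 2.86 and 26.0% ± 0.81 in the same order of groups. On this measure the 4 rested CD5lo libraries (29.2% to 33.2%) all lay above the 4 fresh CD5lo libraries (26.6% to 29.0%). The measure keeps Tars2, whose mean rose from 89.9 to 149 CPM between these groups. In CD5hi cells Tars2 rose from 93.6 to 155 CPM. A balance without Tars2 was not computed. The higher balance after rest is thus not shown for the mitochondrial genes other than Tars2. The 4 Treg libraries (25.1% to 26.8%) all lay below the fresh CD5hi libraries (27.5% to 30.3%) and overlapped the fresh CD5lo range. With each gene's CPM divided by its length, the rested and fresh CD5lo ranges overlapped, since rested replicate 3 (25.72%) lay below fresh replicate 2 (25.76%). Rested CD5hi replicate 3 was at 28.2%, inside the fresh CD5hi range, while the other 3 rested CD5hi libraries were at 33.5% to 34.4%.

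**Figure D1:**
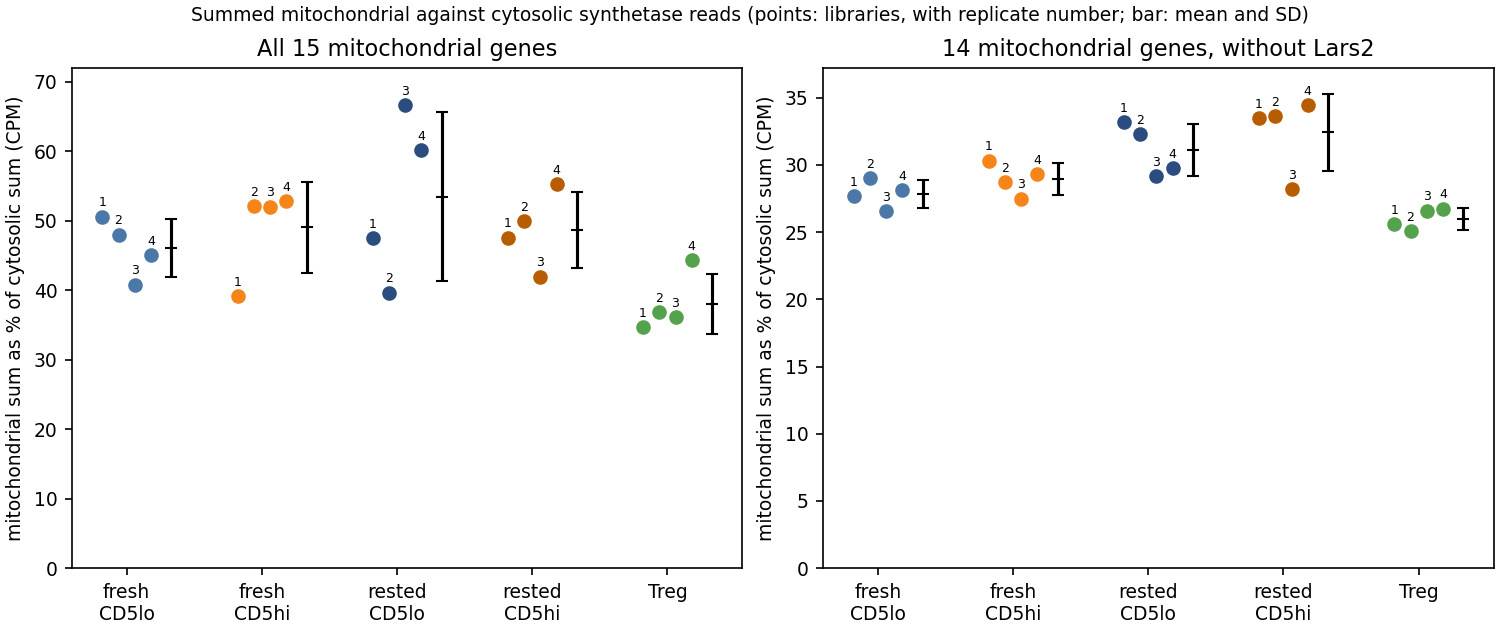
Summed mitochondrial synthetase CPM in percent of summed cytosolic synthetase CPM, with all 15 mitochondrial genes (left) and without Lars2 (right). Points are libraries with their replicate number, and bars give the mean and SD of 4 libraries. With Lars2 the rested CD5lo libraries spread from 39.6% to 66.6%, and without it from 29.2% to 33.2%.

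The parts of the ratio were read as sums. The cytosolic sum was 1838 ± 72.0 CPM in fresh CD5lo, 1723 ± 32.2 in fresh CD5hi, 1634 ± 6.498 in rested CD5lo, 1606 ± 22.0 in rested CD5hi and 1698 ± 17.5 in Treg (SD, n = 4). The mitochondrial sum without Lars2 was 511 ± 22.8, 499 ± 24.05, 508 ± 30.1, 521 ± 44.9 and 441 ± 12.2 CPM. Tars2 alone made up 89.9, 93.6, 149, 155 and 105 CPM of it, in the same order of groups. All rested libraries had a cytosolic sum below that of all fresh libraries of the same CD5 group, and all Treg libraries had a mitochondrial sum below that of all naive fresh libraries. In bulk RNA, fewer cells of a type and less of an RNA per cell cannot be told apart.

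After culture with IL-7, Cars, Iars, Yars, Aars and Mars of the cytosolic set and Rars2, Ears2 and Vars2 of the mitochondrial set were lower in both CD5 groups, and Tars2 was higher in both. Each comparison was fitted with edgeR's quasi-likelihood test over all 20 libraries, and a gene was called at a Benjamini-Hochberg adjusted p under 0.05 over all 13309 genes. In CD5lo cells 10 of 20 cytosolic genes fell, and in CD5hi cells 9 of 20 fell. Among the mitochondrial genes 7 of 15 fell and 1 rose in CD5lo cells, and 3 fell and 1 rose in CD5hi cells. For all tested genes the share called lower was 27.3% in CD5lo and 26.2% in CD5hi cells, and the share called higher was 26.9% and 26.2%. The median log2 change of the cytosolic genes was -0.12 in CD5lo and -0.11 in CD5hi cells, and that of the mitochondrial genes -0.06 and 0.01, beside -0.01 and 0.00 for all genes. In CD5hi cells the share of mitochondrial genes called lower was thus below that of all genes, and 8 of the 15 had a positive estimate. In total 8 cytosolic and 3 mitochondrial genes fell in both CD5 groups, beside 22.3% of all tested genes. The 2 comparisons share no library, but CD5lo and CD5hi libraries of the same replicate number varied together, so they are not independent. Among rested libraries, replicates 1 and 2 were alike in both CD5 groups (chi-square per gene between them 6.04 and 4.92) and differed more from replicates 3 and 4 (25.5 to 75.8). Between replicates 3 and 4 the value was 13.9 in CD5lo. In CD5hi it was 88.2, the largest of the 30 pairs within groups, so replicates 3 and 4 were not alike there.

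**Figure D2:**
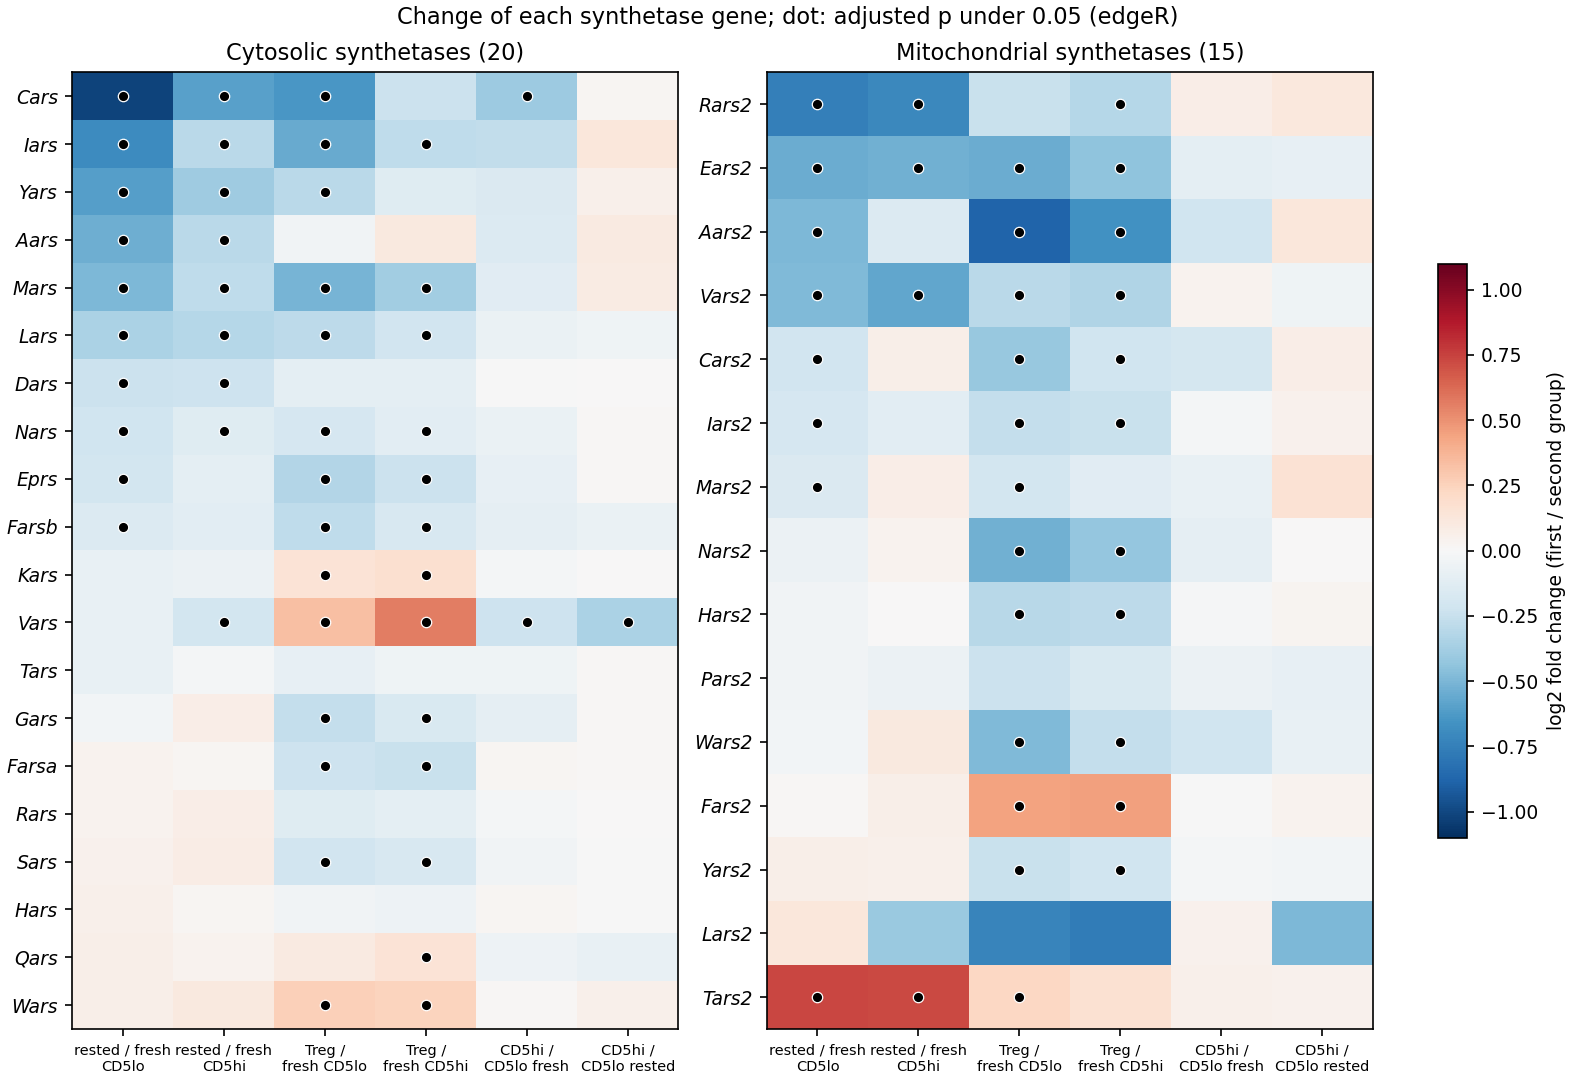
Log2 fold change of each of the 20 cytosolic (left) and 15 mitochondrial (right) synthetase genes in 6 comparisons, as color, with a dot where the edgeR adjusted p was under 0.05. Genes are ordered by their change in rested against fresh CD5lo cells: Cars fell most (-1.02) and Tars2 rose most (0.73).

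Cars had the largest fall among the cytosolic genes in both. It was at 38.5, 33.8, 43.0 and 50.3 CPM in the fresh CD5lo libraries and at 20.9, 21.4, 19.7 and 19.8 CPM after rest. The groups did not overlap, and the log2 change was -1.02 ± 0.11 (SE, edgeR adjusted p = 2.18e-07). In CD5hi cells Cars was at 30.4, 24.7, 31.6 and 38.4 CPM fresh and at 21.7, 21.7, 18.8 and 20.6 CPM rested, a change of -0.60 ± 0.11 (adjusted p = 1.83e-04). After rest the 2 CD5 groups stood at nearly the same level, 20.5 and 20.7 CPM.

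Iars, Yars, Aars and Mars, the isoleucine, tyrosine, alanine and methionine enzymes, followed. Iars was at 109, 101, 117 and 132 CPM in fresh CD5lo and at 83.1, 76.1, 61.2 and 63.3 CPM in rested CD5lo, a log2 change of -0.69 ± 0.11. Yars went from 46.1 to 30.4 CPM in CD5lo (-0.60 ± 0.06) and from 41.3 to 31.5 CPM in CD5hi cells (-0.39 ± 0.06), with no overlap of libraries in either. Aars fell by 0.54 in CD5lo and by 0.30 in CD5hi on the log2 scale, and Mars by 0.50 and 0.28. Iars was at 95.6, 86.7, 96.6 and 101 CPM in fresh CD5hi and at 91.9, 81.3, 59.1 and 77.3 CPM in rested CD5hi, where the groups overlapped. In each of these genes the change printed for CD5hi cells was the smaller, and the test of that difference is given with the CD5 comparisons.

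Lars, Dars and Nars, the leucine, aspartate and asparagine enzymes, also fell in both. Lars fell by 0.34 and 0.32 (log2) in CD5lo and CD5hi, Dars by 0.24 and 0.23, and Nars by 0.22 and 0.14. Eprs (-0.21) and Farsb (-0.15) were called in CD5lo only, and Vars (-0.20) in CD5hi only. The fall of Iars in CD5hi cells (-0.29, adjusted p = 0.0291) lost its call without fresh CD5hi replicate 1 or 4 or rested CD5hi replicate 3 (adjusted p 0.0542 to 0.0974), and with rested replicates 1 and 2 only it was -0.14 (0.169). The fall of Vars lost it without fresh CD5hi replicate 1 or 4 or rested CD5hi replicate 1 or 2 (0.0567 to 0.0994), and with rested replicates 3 and 4 only it was -0.10 (0.190). The fall of Farsb lost it without fresh CD5lo replicate 1 or 3 or rested CD5lo replicate 2, 3 or 4 (0.0543 to 0.0952). Farsb also lost it with rested replicates 1 and 2 only (0.0691) or 3 and 4 only (0.0865). In CD5hi Nars lost its call with either pair of rested replicates (0.0662 and 0.0592). Dars in CD5lo lost its call with rested replicates 3 and 4 only (-0.14, 0.0912). Farsa, Gars, Hars, Kars, Qars, Rars, Sars, Tars and Wars did not pass the test in either rest comparison, with log2 changes between -0.08 and 0.11.

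The members of the multisynthetase complex and the rest of the cytosolic set are counted apart here. Of all tested genes 27.3% were called lower in CD5lo, 26.2% in CD5hi and 22.3% in both. In CD5lo cells 5 of 8 complex enzymes and 5 of 12 enzymes outside it fell, and in CD5hi cells 4 of 8 and 5 of 12. These subsets are small, and differences between them were not tested. By catalytic fold, 6 of 10 class I and 4 of 10 class II enzymes fell in CD5lo, and 6 and 3 in CD5hi. Eprs, which charges both glutamate and proline tRNAs, was counted in class I only. Of the 5 genes with a CARE motif in the window, Aars, Iars and Yars fell in both groups, while Gars (-0.03 and 0.08) and Tars (-0.08 and -0.02) were not called in either. In all, 8 of the 20 cytosolic genes fell in both. Among these 8, Dars and Mars had a window without the motif. Cars, Lars and Nars had no window, so the motif was not searched for them.

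Tars2 was the mitochondrial gene that rose in both CD5 groups. Its levels were 89.3, 87.3, 84.8 and 98.2 CPM in fresh CD5lo and 163, 154, 137 and 144 CPM in rested CD5lo libraries. In CD5hi they were 97.2, 86.7, 89.8 and 101 CPM fresh and 163, 156, 124 and 175 CPM rested. All rested libraries lay above all fresh ones, and the log2 rise was 0.73 ± 0.08 in CD5lo (adjusted p = 2.20e-07) and 0.72 ± 0.08 in CD5hi (adjusted p = 2.73e-07). Its cytosolic partner Tars stayed between 64.1 and 79.2 CPM in all naive libraries.

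Rars2, Ears2 and Vars2, the arginine, glutamate and valine enzymes of mitochondria, fell in both CD5 groups. Rars2 was at 23.5, 23.95, 20.4 and 24.2 CPM in fresh CD5lo and at 15.1, 15.6, 11.2 and 12.6 CPM in rested CD5lo. In CD5hi it went from 27.3, 25.04, 20.997 and 23.5 CPM to 18.0, 16.4, 12.0 and 12.8 CPM. The log2 changes were -0.75 ± 0.12 and -0.71 ± 0.12 (adjusted p = 2.38e-05 and 5.02e-05), the largest falls among mitochondrial genes in both. Ears2 fell by 0.55 and 0.53, and Vars2 by 0.48 and 0.57. The cytosolic arginine enzyme Rars was at 59.3 and 61.1 CPM in fresh and rested CD5lo cells and was not called.

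A further 4 mitochondrial genes were called lower in CD5lo cells only. Aars2 fell from 30.5 to 21.6 CPM (log2 change -0.50 ± 0.08, adjusted p = 1.26e-05), and in CD5hi it went from 26.2 to 23.5 CPM (-0.15, adjusted p = 0.0947). Cars2 fell by 0.21, Iars2 by 0.18 and Mars2 by 0.16 on the log2 scale. The call on Cars2 was lost without fresh CD5lo replicate 4 (adjusted p = 0.0680) or rested CD5lo replicate 4 (0.0632). That on Iars2 was lost without fresh CD5lo replicate 1, 2 or 4 or rested CD5lo replicate 3 or 4 (0.0587 to 0.102). With rested replicates 1 and 2 only, Iars2 was at -0.11 (0.226) and Mars2 at -0.11 (0.141), and neither was called. In the deposited counts the exons of Iars2 overlap those of Rab3gap2 on the other strand over 22.9% of their length in GENCODE M21, and the strand setting of the counting is not given in the sources used here.

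**Figure D3:**
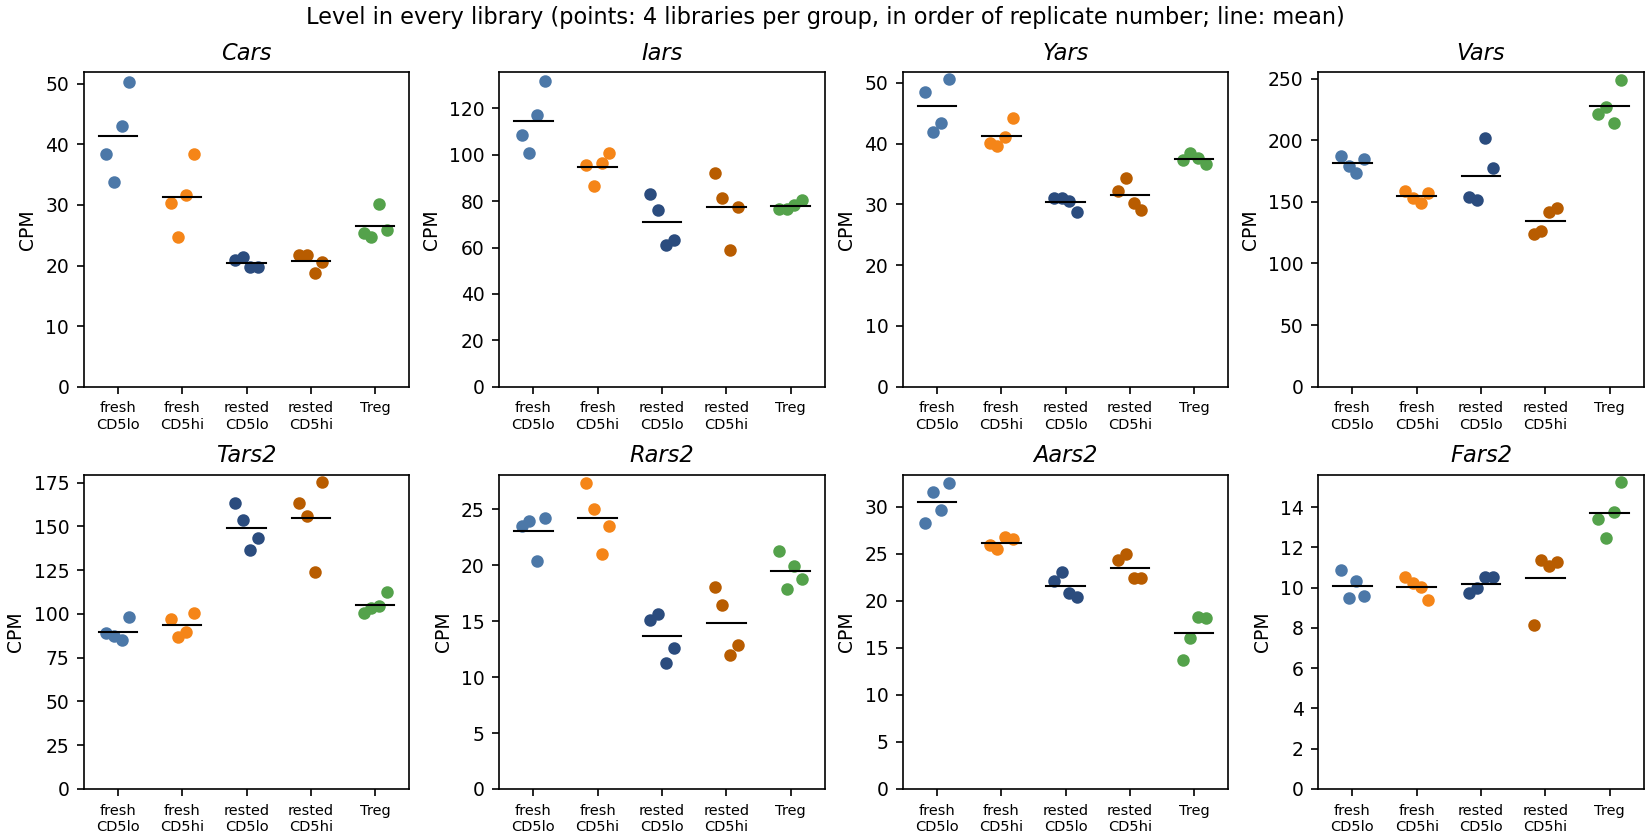
CPM of 8 synthetase genes in every library, with 4 points per group in order of replicate number and a line at the mean. Cars, Iars and Yars are lower in both rested groups, Tars2 is higher in both, and Vars and Fars2 are highest in Treg.

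In Treg many synthetase genes of both compartments were lower than in the fresh naive groups, and a few, led by Vars and Fars2, were higher. Against fresh CD5lo cells 11 of 20 cytosolic genes were lower and 3 higher, and 10 of 15 mitochondrial genes were lower and 2 higher. Against fresh CD5hi cells 9 and 10 were lower, and 4 and 1 higher. For all tested genes the share called lower was 29.4% against CD5lo and 26.6% against CD5hi, and the share called higher was 29.2% and 27.5%. The median log2 difference was -0.20 and -0.13 over the cytosolic genes and -0.29 and -0.26 over the mitochondrial genes, beside -0.03 and -0.02 over all genes. The 2 comparisons share the Treg libraries, and each fresh group is also the control of its rested group, so their counts are not independent of each other.

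Aars2 had the largest difference among the called members. It was at 13.7, 16.1, 18.2 and 18.1 CPM in Treg, against 28.3, 31.5, 29.7 and 32.5 CPM in fresh CD5lo and 25.9, 25.5, 26.8 and 26.5 CPM in fresh CD5hi. All Treg libraries lay below all fresh ones, with log2 differences of -0.88 ± 0.08 (adjusted p = 1.89e-09) and -0.66 ± 0.08 (adjusted p = 2.01e-07). The cytosolic alanine enzyme Aars was at 75.2 CPM in Treg and at 77.3 and 69.6 CPM in the fresh groups, and was not called.

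Nars2, the asparagine enzyme, was at 10.54, 10.45, 11.1 and 10.6 CPM in Treg, against 14.7 to 15.8 CPM in fresh CD5lo and 14.1 to 14.6 CPM in fresh CD5hi. Its log2 differences were -0.52 ± 0.07 and -0.42 ± 0.07. Ears2 differed by -0.55 and -0.44 and Wars2, the tryptophan enzyme, by -0.48 and -0.26. Cars2, Hars2, Iars2, Vars2 and Yars2 were also lower against both groups, by 0.22 to 0.42 on the log2 scale. The call on Wars2 against CD5hi was lost without Treg replicate 1 (adjusted p = 0.0507), that on Cars2 likewise (0.0846), and that on Yars2 without Treg replicate 1 or 4 or fresh CD5hi replicate 3 or 4 (0.0522 to 0.115). Against CD5lo, Yars2 lost its call without Treg replicate 4 (0.0682). Rars2 was called against CD5hi only (-0.31) and lost the call without Treg replicate 2, 3 or 4 or fresh CD5hi replicate 1 or 2 (0.0565 to 0.108). Mars2 was called against CD5lo only (-0.20).

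Fars2, the phenylalanine enzyme of mitochondria, was the exception. It was at 13.4, 12.4, 13.7 and 15.3 CPM in Treg, against 10.9, 9.49, 10.4 and 9.60 CPM in fresh CD5lo and 10.53, 10.2, 10.1 and 9.39 CPM in fresh CD5hi. It was higher by 0.44 ± 0.09 and 0.45 ± 0.09 (log2, adjusted p = 3.18e-04 and 3.20e-04). Both subunits of the cytosolic phenylalanine enzyme went the other way: Farsa was lower by 0.22 and 0.25 and Farsb by 0.28 and 0.17. The exons of Fars2 overlap those of Nrn1 and Lyrm4 on the other strand over part of their length, 8.72% for Nrn1. Tars2 was called higher against CD5lo only (0.23).

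Among cytosolic genes Vars, Wars and Kars, the valine, tryptophan and lysine enzymes, were higher in Treg than in both fresh groups. Vars was at 221, 227, 214 and 249 CPM in Treg, against 187, 179, 174 and 185 CPM in fresh CD5lo and 158, 153, 149 and 157 CPM in fresh CD5hi. The groups did not overlap, and the log2 differences were 0.33 ± 0.07 and 0.56 ± 0.07 (adjusted p = 5.83e-04 and 1.36e-06). Wars was higher by 0.26 and 0.25 and Kars by 0.15 and 0.17, and Qars was called higher against CD5hi only (0.15). In mitochondria the partners Vars2 and Wars2 were lower in Treg.

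The cytosolic falls were led by Mars, Iars and Cars. Mars was at 55.0, 56.6, 53.6 and 55.4 CPM in Treg, against 68.6 to 89.5 CPM in fresh CD5lo and 66.8 to 79.9 CPM in fresh CD5hi libraries. Its log2 differences were -0.51 ± 0.07 and -0.38 ± 0.07. Iars was at 76.7 to 80.3 CPM in Treg and lower by 0.55 and 0.28. Cars, at 26.5 CPM, was lower than in fresh CD5lo by 0.64 (log2), and its difference from fresh CD5hi was -0.24 (adjusted p = 0.0833). Eprs was lower by 0.32 and 0.23, and Farsa, Farsb, Gars, Lars, Nars and Sars were lower against both groups by 0.12 to 0.29. Yars was called against CD5lo only (-0.30).

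Of the 9 cytosolic falls against fresh CD5hi cells, those of Iars, Lars, Nars and Farsb lost their call when single libraries were left out. Iars (adjusted p = 0.0346) lost its call without any 1 of the 4 Treg libraries or without fresh CD5hi replicate 1, 3 or 4 (0.0583 to 0.0856). Lars (0.0480) lost it without any 1 of the Treg libraries or fresh CD5hi replicate 1, 2 or 4 (0.0539 to 0.148). Nars (0.0383) lost it without Treg replicate 1, 2 or 4 or fresh CD5hi replicate 2, 3 or 4 (0.0715 to 0.258). With all libraries kept, Lars also lost its call with DESeq2 (0.0657) and with RLE scaling factors (0.0737). It lost the call with no low-count filter (0.0696) or a 1 CPM filter (0.0910) too. Nars lost its call with the same alternatives (0.101 to 0.122) and with the compared groups only (0.0790). Iars lost its call with the 1 CPM filter (0.0596). Farsb lost it without Treg replicate 4 (0.117) or fresh CD5hi replicate 3 (0.0837). Their direction stayed the same in each of these fits. Hars, Rars and Tars among the cytosolic and Lars2 and Pars2 among the mitochondrial genes were called in none of the 6 comparisons of groups.

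Few synthetase genes were called between CD5hi and CD5lo cells. In fresh cells 2 of 20 cytosolic genes and 0 of 15 mitochondrial genes were called, both lower in CD5hi: Cars and Vars. At an unadjusted p under 0.05 there were 5 cytosolic and 3 mitochondrial genes, and DESeq2 called 1 mitochondrial gene, Aars2. For all tested genes 4.59% were called lower and 6.86% higher in fresh CD5hi cells. The median log2 difference was -0.07 over the cytosolic and -0.02 over the mitochondrial genes, beside -0.01 over all genes. Of the 20 cytosolic genes 17 had a negative estimate, as did 6992 of all 13309 genes, and after rest 6 of the 20 had one.

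Cars was at 30.4, 24.7, 31.6 and 38.4 CPM in fresh CD5hi against 38.5, 33.8, 43.0 and 50.3 CPM in fresh CD5lo, and the groups overlapped. The log2 difference was -0.40 ± 0.11 (edgeR adjusted p = 0.0202), and the call was lost without fresh CD5hi replicate 1 (0.0559) or 2 (0.0914) or fresh CD5lo replicate 3 (0.0548) or 4 (0.112). Vars was lower in all 4 CD5hi libraries than in any CD5lo library, by -0.23 ± 0.07 (adjusted p = 0.0474). Its call was lost without any 1 of the 8 libraries (0.0743 to 0.150).

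Libraries of the same replicate number varied together in these comparisons, so a fit with the number as a block within each state is given beside each value. In that fit 6 cytosolic and 2 mitochondrial genes were called lower in fresh CD5hi cells, against 10% of the 12797 genes it tested called lower and 11.9% called higher. Cars (-0.41 ± 0.04, adjusted p = 3.60e-06), Iars (-0.27 ± 0.05, 5.57e-04), Vars (-0.23 ± 0.04, 3.21e-04), Yars (-0.16), Aars (-0.14) and Mars (-0.12) were the cytosolic genes. Aars2 (-0.22 ± 0.05, 0.00295) and Wars2 (-0.22 ± 0.05, 0.00638) were the mitochondrial ones. For all 8, CD5hi was below CD5lo in 4 of 4 pairs: the log2 ratio ran from -0.46 to -0.34 for Cars, from -0.39 to -0.19 for Iars and from -0.24 to -0.22 for Vars. The 8 were chosen by this fit of the same pairs, so their shared sign is no separate support.

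**Figure D4:**
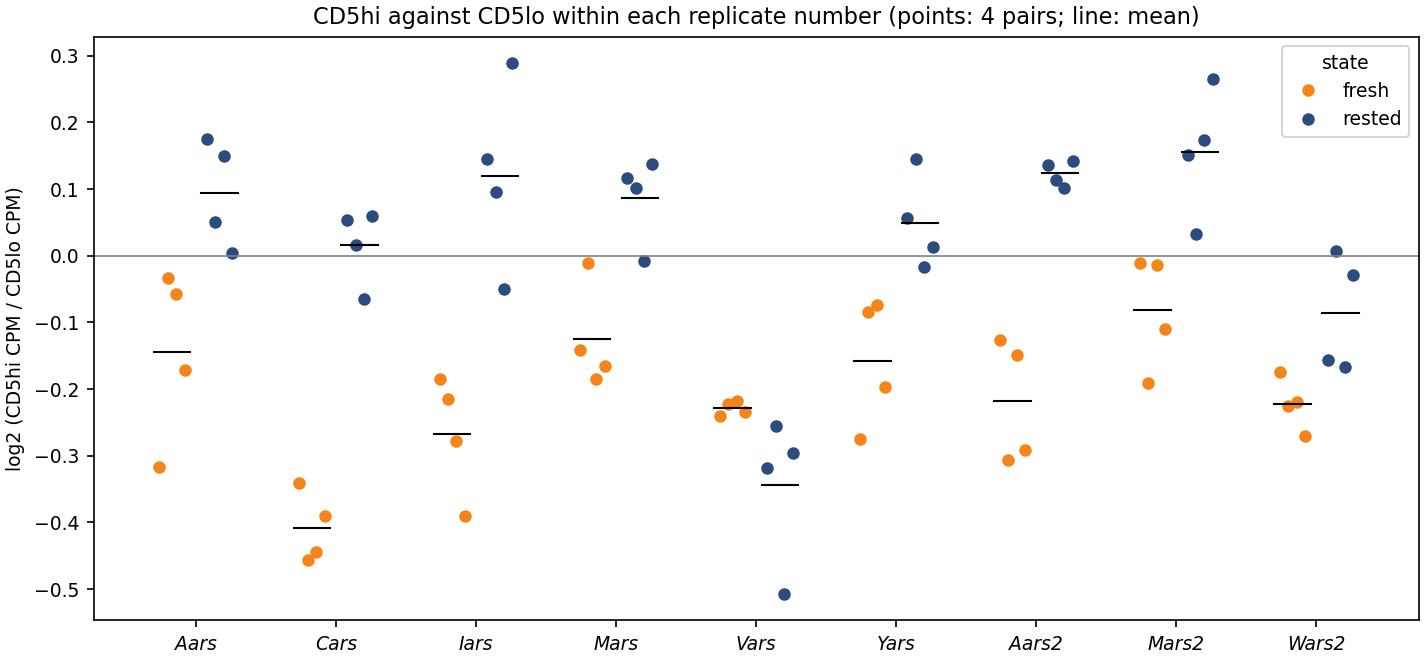
Log2 ratio of CD5hi to CD5lo CPM within each replicate number, for the 9 members called with the replicate block in any CD5 comparison, before culture (orange) and after it (blue), with a line at the mean of 4 pairs. All fresh pairs lie below 0 for each of the 9 genes, while after rest only Vars lies below 0 in all 4 pairs. The genes were chosen by that fit of the same pairs, so the pattern of signs is no separate support.

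After rest Vars was the single member called, with 0 of 15 mitochondrial genes. It was at 124, 127, 142 and 145 CPM in rested CD5hi and at 154, 151, 202 and 178 CPM in rested CD5lo libraries, which did not overlap. The log2 difference was -0.35 ± 0.07 (adjusted p = 0.00338), or -0.34 ± 0.04 with the block (8.83e-06). For all tested genes 3.46% were called lower and 4.74% higher. At an unadjusted p under 0.05 there was 1 cytosolic and 1 mitochondrial gene. The mitochondrial one was Mars2, higher in CD5hi by 0.15 (adjusted p = 0.0752), which DESeq2 called and which the block called at 0.16 (0.0467). In the blocked fit 9.49% of genes were called lower and 9.04% higher. When only the 2 rested groups were fitted, the adjusted p of Vars was 0.0943. The median log2 difference was 0.01 over the cytosolic and 0.03 over the mitochondrial genes, beside 0.00 over all genes.

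The change of the CD5hi to CD5lo difference on resting was tested as an interaction. With edgeR 0 of 35 members passed, against 0.338% of tested genes called lower and 0.113% called higher, and DESeq2 also called 0 of 35. At an unadjusted p under 0.05 there were 5 cytosolic and 3 mitochondrial members. With the block, where 1.88% of genes were called lower and 0.883% higher, 3 members passed, all in the positive direction: Cars (0.42 ± 0.06, adjusted p = 0.00130), Iars (0.39 ± 0.07, 0.00430) and Aars2 (0.34 ± 0.07, 0.0106). The estimates without the block were of the same size, 0.42, 0.40 and 0.34 (adjusted p = 0.556, 0.572 and 0.3001). The mean rested levels in CD5lo and CD5hi were 20.5 and 20.7 CPM for Cars, 71.0 and 77.4 CPM for Iars, and 21.6 and 23.5 CPM for Aars2. For Vars the interaction was -0.12 and was not called, and its difference between CD5 groups was present in both states. Without rested CD5hi replicate 3, Cars2 passed without the block (0.35, adjusted p = 0.0438).

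Lars2, the mitochondrial leucine enzyme, varied most between libraries in each group but rested CD5hi, where Rars2 had the larger SD relative to its mean (19.4% against 18.6%). It was at 426, 332, 260 and 326 CPM in fresh CD5lo and at 151, 399, 419 and 417 CPM in fresh CD5hi libraries. After rest it was at 232, 120, 613 and 499 CPM in CD5lo and at 230, 262, 222 and 328 CPM in CD5hi. In Treg it was at 154, 202, 163 and 294 CPM. In rested CD5lo its SD was 62.4% of the mean, while the next most variable member in that group, Rars2, had an SD of 15.3% of its mean. It was not called in any comparison, with standard errors near 0.36 (log2). Its difference in Treg was -0.72 against CD5lo and -0.77 against CD5hi (adjusted p = 0.0949 and 0.0812). Against CD5hi the call appeared without fresh CD5hi replicate 1 (-1.02, adjusted p = 0.0192) or without Treg replicate 4 (-0.98, 0.0450). With the compared groups only it was called against both, at -0.71 against CD5lo (0.00184) and -0.76 against CD5hi (0.0167), and with the replicate block against CD5lo at -0.81 (0.0492). In rested CD5lo cells replicates 1 and 2 lay below, and replicates 3 and 4 above, all 4 fresh CD5lo libraries.

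**Figure D5:**
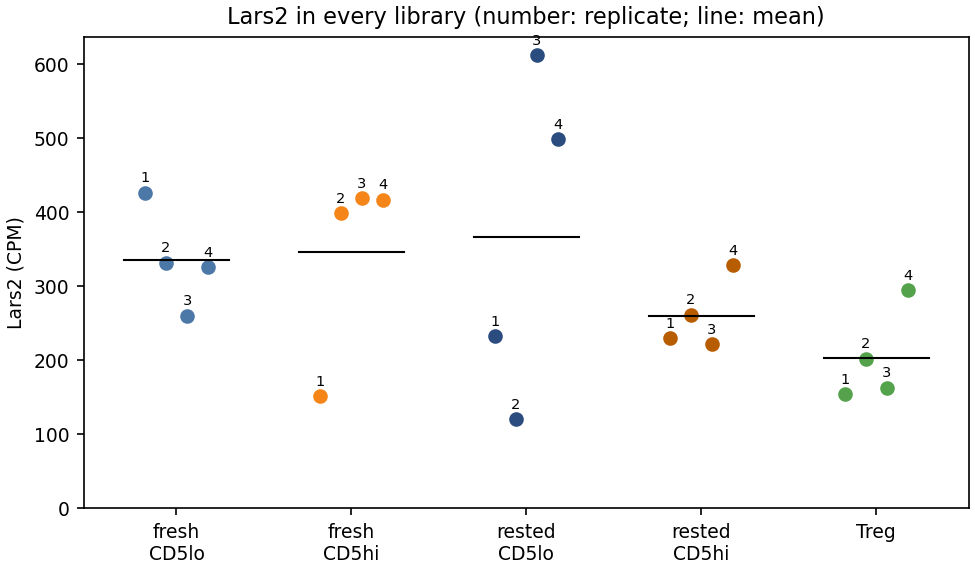
Lars2 CPM in every library, with the replicate number beside each point and a line at the mean of 4 libraries. Rested CD5lo runs from 120 to 613 CPM, and fresh CD5hi replicate 1 stands at 151 CPM, below the other 3 at 399 to 419 CPM.

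Other genes of tRNA charging were read from lists beside the members. Shares of all tested genes called on rest were 27.3% lower and 26.9% higher in CD5lo, and 26.2% and 26.2% in CD5hi. In Treg they were 29.4% lower and 29.2% higher against CD5lo, and 26.6% and 27.5% against CD5hi. Of the 3 scaffolds of the multisynthetase complex, Eef1e1 rose on rest in both CD5 groups (0.30 and 0.40, log2), Aimp1 in CD5lo (0.24) and Aimp2 in CD5hi (0.18), while the complex enzymes fell or were not called. In Treg Aimp2 was lower against both fresh groups (-0.33 and -0.21). Of 12 other charging genes in the table, 6 fell and 1 rose on rest in each CD5 group, and 8 were lower in Treg in each comparison. Sars2, the mitochondrial serine enzyme, was at 18.6, 19.2, 18.6 and 19.7 CPM in fresh CD5lo and at 13.4, 11.9, 9.45 and 9.05 CPM in rested CD5lo (-0.80, and -0.69 in CD5hi). Pet112l and Qrsl1, subunits of the amidotransferase that makes mitochondrial glutaminyl-tRNA, fell by 0.74 and 0.73 and by 0.51 and 0.46. Pstk, a kinase of selenocysteine tRNA charging, rose by 0.41 and 0.42. Tarsl2, a second cytosolic threonine enzyme, was at 7.70, 7.39, 8.44 and 8.91 CPM in Treg against 14.01 to 17.3 CPM in fresh CD5lo (-0.95, and -0.78 against CD5hi).

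Factors of translation, which use the charged tRNA, were read by compartment. Of all tested genes 26.9% rose and 27.3% fell on rest in CD5lo, and 26.2% did each in CD5hi. In Treg against fresh CD5lo 29.2% were higher and 29.4% lower. Of 5 cytosolic elongation genes 3 rose on rest in CD5lo and 2 in CD5hi cells, among them Eef2, the translocation factor (4272 to 5833 CPM, 0.45, and 0.31 in CD5hi). In Treg 4 of 5 were lower than in fresh CD5lo. Of 9 mitochondrial translation factors 6 fell on rest in CD5lo and 5 in CD5hi, led by the initiation factor Mtif2 (44.0 to 26.4 CPM, -0.74, and -0.59). Gfm1, a mitochondrial elongation factor, fell by 0.43 and 0.37, and Mrrf, the recycling factor, by 0.43 and 0.39. In Treg 3 of 9 were lower and 1 higher than in fresh CD5lo, the latter being Tufm (0.23).

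Genes of the amino acid response did not move in a single direction. Beside the counts below, 26.9% of all tested genes rose and 27.3% fell on rest in CD5lo, and 26.2% did each in CD5hi. The shares in Treg were 29.2% higher and 29.4% lower than in fresh CD5lo. Of 23 tested genes on the ATF4 list, 7 rose and 10 fell on rest in CD5lo, and 9 rose and 6 fell in CD5hi. Trib3, a pseudokinase, was at 4.70, 5.97, 5.44 and 6.28 CPM in fresh CD5lo and at 45.3, 42.4, 49.4 and 47.0 CPM after rest (3.04, and 3.28 in CD5hi). Ddit4, an inhibitor of mTORC1, went from 162 to 21.4 CPM (-2.92, and -3.11), and Mthfd2, a mitochondrial folate enzyme, fell by 0.999 and 0.82. Sesn2, a leucine sensor, rose by 0.61 and 0.70, and Atf4 itself by 0.22 and 0.29. In Treg 8 of 23 were higher and 4 lower than in fresh CD5lo. There Asns, the asparagine synthetase, was at 1.39 CPM against 0.262 CPM (2.40), Sesn2 was higher by 1.73, Cebpb, a transcription factor, by 1.02, and Psat1, an enzyme of serine synthesis, by 0.77. Of 7 genes of the GCN2 branch, 2 rose and 1 fell on rest in CD5lo, and 2 rose in CD5hi. Myc went from 87.6 to 166 CPM in CD5lo and from 90.5 to 185 CPM in CD5hi cells (0.92 and 1.03). Myc was also higher in Treg (0.36 and 0.32).

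In GENCODE M21, 9 of the 35 members share exon bases with another gene of the table, 8 of them on the opposite strand, and the reads of such a pair cannot be told apart where the strand was not used. Besides those given above, the overlap covered 14.3% of the exon bases of Aars (with Exosc6, on the same strand), 9.47% of Farsb (with Sgpp2), 7.97% of Hars (with Hars2) and 1.99% of Mars (with Ddit3).

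Markers of other cell types and the sex of the libraries moved with culture. Summed over 4 erythroid markers, fresh CD5lo libraries held 26.9 to 58.9 CPM and rested CD5lo libraries 0.3296 to 6.76 CPM, with 4 of 4 lower, and Treg libraries held 0.988 to 17.0 CPM. Over the 5 myeloid markers in the table the ranges were 11.9 to 16.2, 3.48 to 5.96 and 7.03 to 9.19 CPM, with 4 of 4 tested lower after rest. B cell markers summed to 3.72 to 4.88 CPM in fresh CD5lo, 4.59 to 9.71 in rested CD5lo and 23.0 to 25.01 CPM in Treg, with 4 of 5 called higher in each. Markers of CD8 T and NK cells were at 31.3 to 36.7 CPM in fresh CD5lo and at 8.65 to 9.44 CPM in fresh CD5hi, where Ncr1 was at 0. Markers of CD4 T cells were present in all groups and lower after rest, at 2228 to 2312 CPM in fresh and 1696 to 1830 CPM in rested CD5lo, with 3 of 4 called lower. In CD5hi they were at 2115 to 2178 and 1520 to 1608 CPM, with 4 of 4 called lower. Foxp3 was at 722 CPM in Treg and at 22.4 to 28.6 CPM in the naive groups. Summed over 4 Treg markers, fresh CD5lo and CD5hi libraries held 27.6 to 30.2 and 37.1 to 40.1 CPM, and after rest 159 to 175 and 146 to 170 CPM. Of the 4, 2 were called higher and 0 lower in CD5lo, and 3 higher and 1 lower in CD5hi. Foxp3 itself was at 22.4 CPM in fresh and 23.3 CPM in rested CD5lo, and at 24.1 and 28.6 CPM in CD5hi. In 0 of 8 fresh naive libraries, and in 3 of 4 libraries of each rested group and of Treg, did Xist counts exceed Y-linked counts, so sex partly separates fresh naive libraries from the others. A sex term is thus set within the rested and Treg groups only, each with 3 of 4 libraries on the same side, and rests on few libraries. With sex as a term, the calls on Dars and Farsb in CD5lo (adjusted p = 0.0519 and 0.128) and on Dars, Nars and Vars in CD5hi (0.0603, 0.0821 and 0.243) after rest were lost. In Treg those on Tars2 and Yars2 against CD5lo (0.427 and 0.112) and on Farsb, Nars and Yars2 against CD5hi (0.0767, 0.131 and 0.179) were lost. Some of these log2 changes moved little, as for Farsb after rest in CD5lo (-0.15 to -0.13) and Nars after rest in CD5hi (-0.14 to -0.12). Others became larger with the term: Iars went from -0.29 to -0.49 after rest in CD5hi and from -0.28 to -0.46 in Treg against CD5hi, and Rars2 from -0.31 to -0.48 in the latter. Calls were gained for Eprs (-0.17) and Wars (0.16) after rest in CD5hi and for Qars (0.16) and Rars2 (-0.41) in Treg against CD5lo. The part of the other cell types in the results was not tested.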

How the data were processed

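The deposited table of whole-number counts per gene was used. Per the submitters' processing notes the authors used TopHat2 2.0.11, featureCounts 1.4.5, Subread and edgeR with build mm9; the annotation, the strand setting and how read pairs were counted are not stated in any source used here (62.3% to 66.2% of counts from 1 to 10 were even). A deposited CPM table was not used. Counts were fitted with edgeR 4.0.16 (R 4.3.3): TMM scaling, filterByExpr, 1 factor of 5 groups, quasi-likelihood test with 15 residual degrees of freedom. The fit was tested on simulated data with 200 genes changed: in rested against fresh CD5lo, run on 13052 genes, 40.3% of 1.25-fold and 83.3% of 2-fold changes were recovered. In fresh CD5hi against CD5lo the shares were 29.2% and 80.3%. For the interaction they were 8.96% and 66.7%, with 46.9% of 1.5-fold changes recovered, so a missing call there says little about small changes. Groups came from the sample titles.

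The members and lists were chosen with earlier results of these data known. In each comparison, members called in edgeR were counted by compartment and direction and the 4 largest in each direction with at least 1 CPM were named first; of each other list up to 4 called genes were named at 1 CPM or more. Further members, to account for all 35, and Atf4 were named after their values were seen.

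Same-numbered CD5lo and CD5hi libraries deviated together (r 0.160 to 0.299 fresh, 0.189 to 0.517 rested, all above 0.1), a pairing taken from these data; other groups were not paired. No 2 libraries of a group agreed within sampling noise. Alternatives were DESeq2 1.42.0, RLE factors, other filters, compared groups only, a sex term, the replicate block, pairs of rested libraries and leaving out each library. Some items are not reported here.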

Additional observations from a re-analysis of the deposited data

Results flagged for a closer look

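Among 175 sets of 4 libraries (35 members in 5 groups), 11 held a library whose gap to its nearest neighbour, as a share of the range, exceeded Dixon's 95% critical value for 4 samples. Chance flags about 1 in 20 such sets. Lars2 stood at 151 CPM in fresh CD5hi replicate 1, against 399 to 419 CPM in the other 3 libraries. Fars2 in rested CD5hi replicate 1 was at 8.17 CPM against 11.1 to 11.4, Pars2 in fresh CD5lo replicate 3 at 9.76 against 12.6 to 13.0, and Farsb in rested CD5hi replicate 4 at 42.6 against 47.9 to 48.9. Low values were also seen for Gars in fresh CD5hi replicate 1 (75.6 CPM), Kars in rested CD5lo replicate 3 (87.9 CPM), Mars2 in fresh CD5hi replicate 2 (24.05 CPM) and Mars2 in Treg replicate 1 (22.9 CPM). High values were Tars in fresh CD5lo replicate 4 (79.2 CPM), Wars in rested CD5hi replicate 3 (69.6 CPM) and Hars2 in Treg replicate 3 (44.2 CPM). The cause was not tested.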

How the results depend on the processing

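Of 84 calls on members over the 6 comparisons of groups, 62 held under every alternative run, 22 were lost under at least 1, and 0 changed sign. Counts of calls in the 4 comparisons of rested or Treg with fresh cells stayed within 1.5 times under every alternative. In fresh CD5hi against CD5lo, cytosolic calls were 1 with RLE factors, 1 with no low-count filter and 6 with the replicate block within states; mitochondrial calls were 1 with DESeq2, 3 with compared groups only and 2 with the block; the block called 2806 genes. Leaving out 1 library gave 0 to 2 cytosolic and 0 to 1 mitochondrial calls. In rested cells, genes called were 495 with compared groups only, 2372 with the block and 639 with rested replicates 3 and 4 only, and 834 to 1468 without 1 library (lowest without rested CD5hi replicate 1); cytosolic calls were 0 with compared groups only, and mitochondrial calls were 1 with DESeq2 and 1 with the block. For the interaction, genes called were 130 with DESeq2, 354 with the block and 36 to 90 without 1 library (36 without fresh CD5hi replicate 2, 39 without rested CD5hi replicate 1, and likewise without replicate 1 or 4 of fresh CD5lo, 90 without rested CD5hi replicate 3); the block called 2 cytosolic and 1 mitochondrial member, and leaving out 1 library 0 to 1 mitochondrial. Compartment balance with Gars and Kars left out was 51.3% in fresh CD5lo, 54.7% in rested CD5hi and 42.5% in Treg, and without Lars2 27.8%, 29.0%, 31.1%, 32.4% and 26.0% in the order of the report. Lars2 in rested against fresh CD5lo was -0.94 (adjusted p = 0.0265) with rested replicates 1 and 2 only and 0.74 (0.0441) with replicates 3 and 4 only; the cause was not tested. In the other comparisons libraries share only a number: the replicate block gave 10 cytosolic and 8 mitochondrial calls in rested CD5lo, 10 and 4 in rested CD5hi, 15 and 14 in Treg against CD5lo and 13 and 12 against CD5hi. Depth did not limit the members, which had at least 8.17 CPM in every library.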
